A study of Mus musculus with 2 samples.

Results

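CTCF binding was examined at the clustered protocadherin locus on mouse chromosome 18, from 37060000 to 38030000 on mm9. The locus was divided into the windows Pcdha (37060000 to 37400000), Pcdhb (37400001 to 37750000) and Pcdhg (37750001 to 38030000). A peak belonged to the locus when its centre lay in the window. The locus held 140 of the 105572 peaks of both lists, 89 of 54151 from E14 embryonic stem cells (ESC) and 51 of 51421 from neural precursor cells (NPC). By window there were 25 ESC and 19 NPC peaks in Pcdha, 35 and 18 in Pcdhb, and 29 and 14 in Pcdhg. The region was chosen from the number and scores of ESC peaks without an NPC counterpart in these same lists. Its peak counts, overlaps and scores are therefore given as a description, with no test.

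The ESC sample was the E14Tg2A line, also called IB10, cultured with serum and leukemia inhibitory factor. The NPC sample was derived from E14 ESCs and grown on gelatin with N2 supplement, basic FGF and EGF. No genotype difference or other treatment is named for either sample, and the same Millipore anti-CTCF antibody and SOLiD sequencing were used for both. With 1 library per cell type nothing is known of the variation among cultures, and every difference below is between these libraries. The lists hold no expression values, so the labelled cell types could not be checked against marker genes. Sequencing depth is not given with the lists, and intervals below cover counting error over peaks only. Of the peak numbers absent from the ESC list, 0 fell within the locus.

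Clustered protocadherins are cadherin-like adhesion proteins, and combinations of them give each neuron a surface identity used in self-recognition. In the alpha and gamma clusters each variable exon has its own promoter and is spliced to shared constant exons, whereas beta genes are single-exon genes. CTCF binds a conserved element in most variable promoters, alpha variable exons carry a further CTCF site downstream of the promoter, and CTCF with cohesin brings chosen promoters to distant enhancers such as HS5-1 of the alpha cluster. RefSeq (GRCm38.p6) lists 14 genes with a Pcdha symbol (Pcdha1 to Pcdhac2), 22 with a Pcdhb symbol and 22 with a Pcdhg symbol, of which 21 are protein-coding. That table is on another build than the peak lists, so peaks were placed in windows and were not assigned to single genes.

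Peaks were denser in the locus than around it in ESC, and less so in NPC. The locus held 9.18 ESC peaks per 100 kb, against 4.54 and 4.64 in the regions of 970 kb before and after it. In NPC the locus held 5.26 peaks per 100 kb, against 4.02 and 4.12 in the same flanks. For every 100 ESC peaks there were 57.3 NPC peaks in the locus, 88.6 and 88.9 in the flanks, 99.0 on the rest of chromosome 18 and 94.96 over the whole lists. By window this ratio was 76.0 in Pcdha, 51.4 in Pcdhb and 48.3 in Pcdhg. Neighbouring ESC peak centres were a median of 4795 bp apart in Pcdha, 3574 bp in Pcdhb and 5051 bp in Pcdhg, whereas the NPC medians were 5885, 10810 and 7157 bp. The ESC value over the whole list was 17945 bp, and the NPC value 19572 bp. In the flanks before and after the locus the medians were 12266.5 and 14803 bp in ESC, and 8828.5 and 14615.5 bp in NPC. The NPC median of Pcdhb was thus above that of the flank before the locus.

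**Figure D1:**
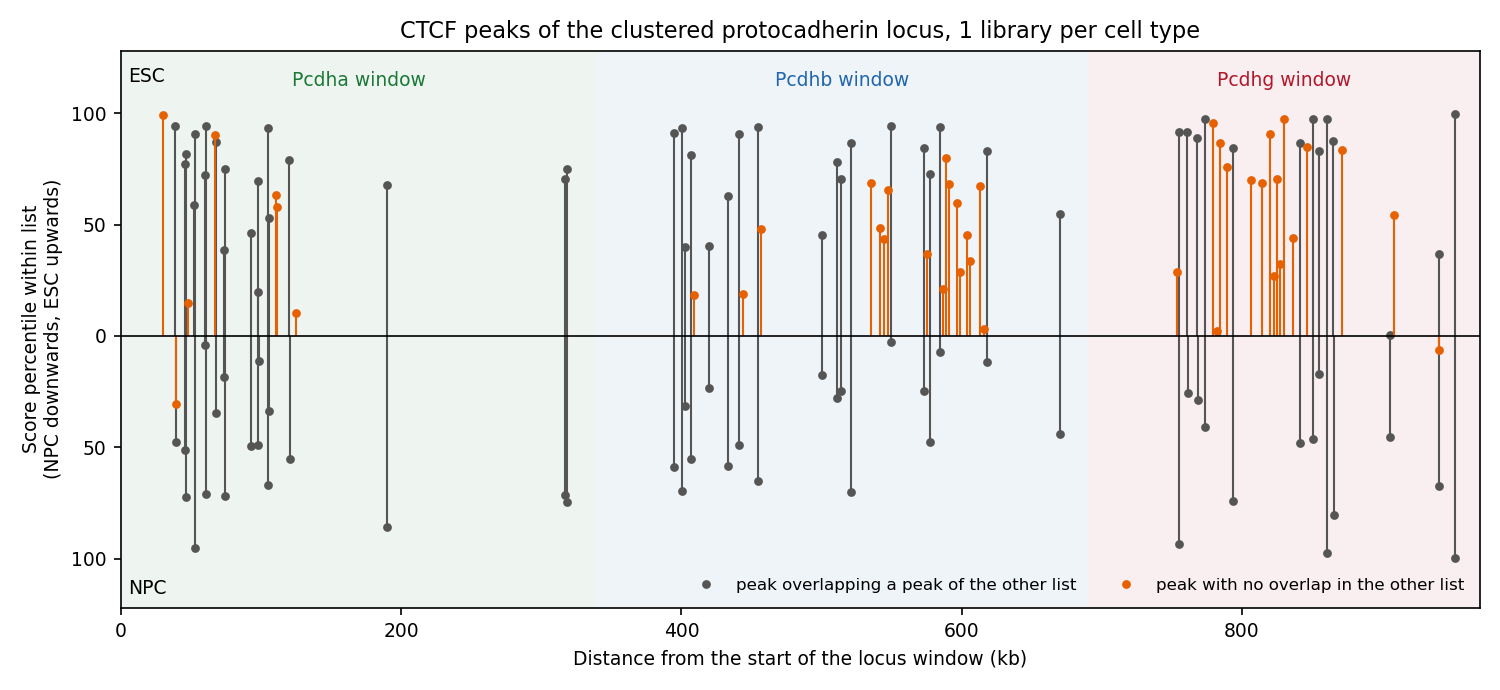
Each stem is a CTCF peak, plotted by its distance from the start of the locus window (kb) and by its score percentile within its own list, with ESC upwards and NPC downwards; orange marks peaks with no overlap in the other list. The 39 ESC-only peaks are concentrated in the Pcdhb and Pcdhg windows, and the NPC list has 2 NPC-only peaks.

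Peaks touching a peak of the other cell type over 1 bp or more are termed shared, and the rest ESC-only or NPC-only. In the locus 39 of 89 ESC peaks were ESC-only (43.8%, exact 95% interval 33.3 to 54.8), against a background of 26.0% of all ESC peaks. The Pcdha window was near the background, with 6 of 25 (24%, 9.36 to 45.1). The Pcdhb window had 17 of 35 (48.6%, 31.4 to 66.0) and the Pcdhg window 16 of 29 (55.2%, 35.7 to 73.6). The windows' intervals overlapped one another, and the difference between windows was not tested. In the flanks 22.7% (11.5 to 37.8) and 24.4% (12.9 to 39.5) of ESC peaks were ESC-only, and on the rest of chromosome 18 24.7% (22.5 to 27.0).

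The opposite class was rare. Of the 51 NPC peaks, 2 were NPC-only (3.92%, 0.479 to 13.5), against a background of 21.4% of all NPC peaks. The first, in Pcdha at 37099326 to 37099613 (score 212, percentile 30.4), lay 233 bp from an ESC peak. The other, in Pcdhg at 38000465 to 38000713 (score 116, percentile 6.42), lay 144 bp from one. Pcdhb had 0 NPC-only peaks among 18, which allows a share of up to 18.5% by the exact interval. These low counts depended on the overlap rule: with 50% reciprocal overlap 31.4% of the NPC peaks of the locus were unmatched, against 28.1% of the whole NPC list. Under that rule 60.7% of the ESC peaks of the locus were unmatched, against 31.7% of the ESC list. Peaks of the locus had a median width of 669 bp in ESC and 399 bp in NPC, and the part of width in this change was not tested. Of the NPC peaks of the locus in the upper 50% by score, 0 of 22 were NPC-only (interval 0 to 15.4), against 5.01% over the list.

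ESC-only peaks of the locus included strong ones. Scores are the authors' values and are used here only as percentiles within a list, where 100 is the highest score. Among ESC peaks in the upper 50% of the list by score, 21 of 63 in the locus were ESC-only (33.3%, 22.0 to 46.3), against a background of 4.96%. The counts were 4 of 20 in Pcdha (20%, 5.73 to 43.7), 6 of 21 in Pcdhb (28.6%, 11.3 to 52.2) and 11 of 22 in Pcdhg (50%, 28.2 to 71.8). In the flanks 1 of 25 and 0 of 24 such peaks were ESC-only. In the top 25% of the ESC list, 10 of 40 peaks of the locus were ESC-only (25%, 12.7 to 41.2), against 1.11% over the list, and 7 of these 10 lay in Pcdhg. In the lowest 25% the share was 7 of 9 (77.8%, 39.99 to 97.2), against 60.4% over the list.

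**Figure D2:**
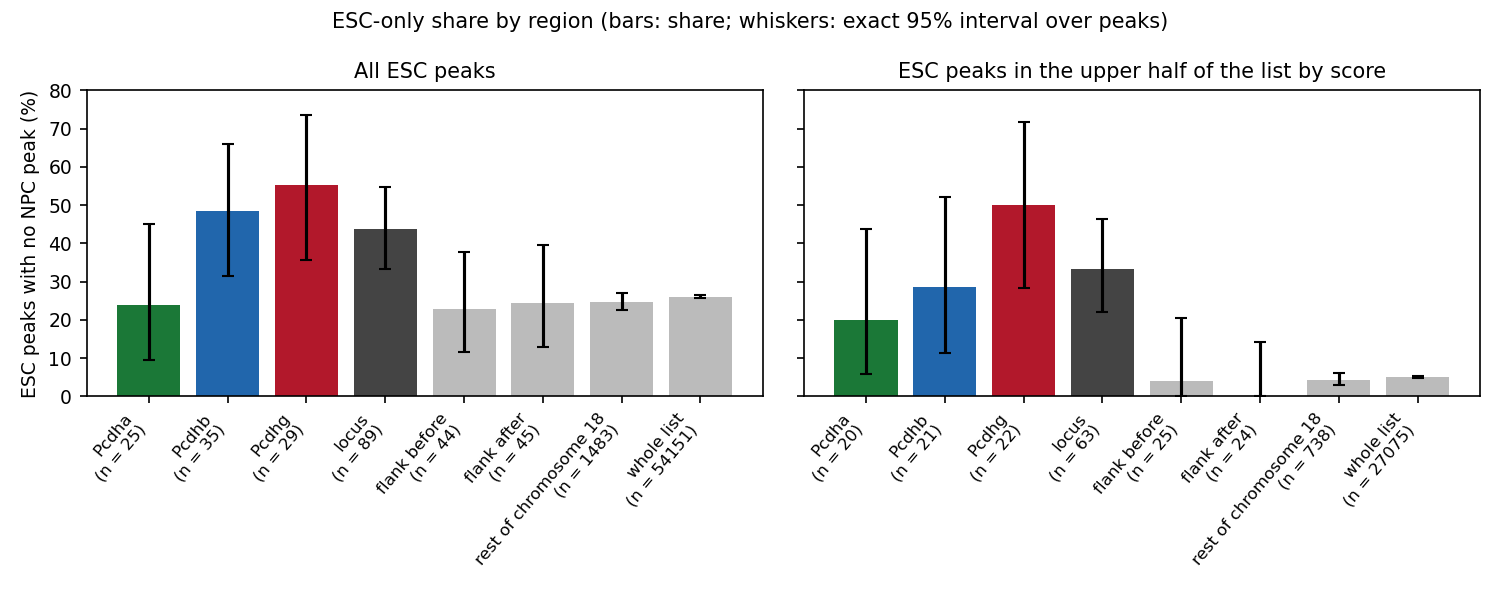
Bars give the percentage of ESC peaks with no overlapping NPC peak in each window, the whole locus, the flanks, the rest of chromosome 18 and the whole list, for all ESC peaks (left) and for those in the upper 50% by score (right); whiskers are exact 95% intervals over peaks of 1 library. On the right the locus stands at 33.3% and the whole list at 4.96%.

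ESC peaks in crowded places elsewhere had lower ESC-only shares than crowded ESC peaks of the locus. Peaks of the locus had a median of 14 other ESC peaks within 50 kb, against 4 outside it. Outside the locus 397 ESC peaks had at least 14 such neighbours, of which 31.5% (26.9 to 36.3) were ESC-only. In the locus 24 of 46 peaks with at least 14 neighbours were ESC-only (52.2%, 36.95 to 67.1). These groups were not equally crowded, with a median of 15 neighbours outside the locus and 17 in it. For such peaks in the upper 50% by score the share was 8.33% (5.01 to 12.9, 18 of 216) outside the locus. In the locus it was 42.4% (25.5 to 60.8, 14 of 33). ESC peaks of the locus were also wider than in the list as a whole, at a median width of 669 bp (quartiles 560 and 765) compared with 573 bp. NPC peaks were not, with 399 bp (330.5 to 513) against 433 bp. Peaks of the locus had a median score percentile of 70.65 in ESC and 48.1 in NPC. Over the whole ESC list the median width was 619 bp for shared peaks and 457 bp for ESC-only peaks. The part of score in these widths was not tested.

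The Pcdha window held close pairs of CTCF peaks. Of its 24 distances between neighbouring ESC peaks, 9 (37.5%, 18.8 to 59.4) were under 1 kb, and they ranged from 0.635 to 0.911 kb. Over the whole ESC list 2.44% of neighbour distances were under 1 kb, and Pcdhb and Pcdhg had 0 of 34 and 0 of 28. In NPC 7 of the 18 distances in Pcdha (38.9%, 17.3 to 64.3) were under 1 kb. This limit, like the distance band used for Pcdhb below, was chosen after the distances were seen. Of the 9 ESC pairs, 7 had both peaks shared, 1 had a single shared peak and 1 had neither.

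Within these pairs the peaks on the low-coordinate side, called first here, mostly had the larger drop in percentile from ESC to NPC. Where both peaks of a pair matched a single NPC peak each, the first had the larger drop in percentile in 5 of 6 pairs. No such count was made for close pairs over the whole list, and a difference by side was not tested. In the pair at 37119386 to 37120988 the first peak went from percentile 72.2 in ESC to 4.02 in NPC, and the second from 94.4 to 70.9. In the pair at 37133129 to 37134313 the first went from 38.6 to 18.6 and the second from 74.99 to 71.8. In the pair at 37105178 to 37106589 the values were 77.2 to 51.3 and 81.5 to 72.3. In each of these pairs the first peak was the lower one in ESC. In the other pairs with a larger first drop, the first peak was the higher one in both lists. At 37157102 to 37158303 the first went from 69.5 to 49.0 and the second from 19.8 to 11.4. At 37164460 to 37165713 the values were 93.4 to 66.8 and 52.9 to 33.7. The exception was the pair at 37376830 to 37378517, which had its neighbours 127.6 kb and 76.3 kb away, where both peaks had nearly equal percentiles in the cell types (70.7 and 71.2 for the first, 74.98 and 74.5 for the second). HS5-1 is known to bind CTCF at a pair of sites, but its position on mm9 was not used here and this pair was not assigned to it.

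One pair was resolved differently in the lists. The ESC peaks at 37111915 to 37112535 (percentile 58.9) and 37112600 to 37113323 (90.5) were both overlapped by 1 NPC peak of 1270 bp, at 37111964 to 37113233, with a percentile of 94.95. It was the highest NPC peak of the Pcdha window and the only peak of either list in the locus that overlapped more than 1 peak of the other list. These ESC peaks therefore entered no matched comparison.

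The strongest ESC-only peak of the locus opened the Pcdha window. It lay at 37089402 to 37090814, was 1413 bp wide, scored 2801 (percentile 99.4) and had its closest NPC peak 7734 bp away. The next, at 37126850 to 37127603 (score 1534, percentile 90.4), was 52 bp from an NPC peak that overlapped its close neighbour, so its status rests on the overlap rule. A close pair at 37169949 to 37170701 (percentile 63.1) and 37170858 to 37171350 (57.7) had no NPC peak at either position, the nearest being over 4 kb away. The remaining ESC-only peaks of Pcdha were weak, at percentiles 14.9 (37107846 to 37108238) and 10.4 (37184687 to 37184971).

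The Pcdhb window had a different and sharper spacing. Of the 34 distances between its neighbouring ESC peaks, 14 (41.2%, 24.7 to 59.3) lay between 2.2 and 2.5 kb, with a median of 2.34 kb and a range of 2.28 to 2.45 kb. Over the whole ESC list 1.49% of distances fell in this band. Pcdhg had 3 of 28 in it (10.7%, 2.27 to 28.2) and Pcdha 0 of 24. In NPC 1 of the 17 Pcdhb distances did (5.88%, 0.149 to 28.7), since one or both peaks of most pairs had no NPC peak. The plot of neighbour distances shows this single tall column in the Pcdhb ESC list.

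**Figure D3:**
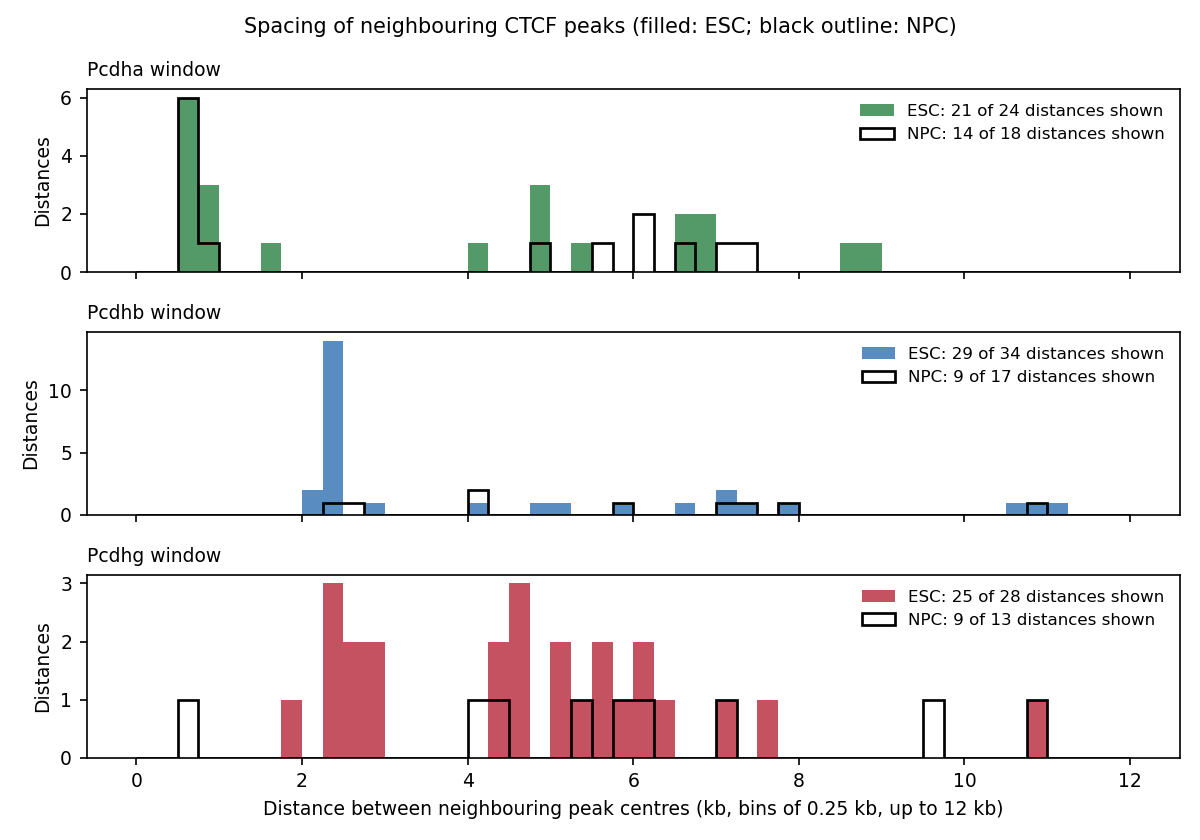
Histograms of the distance between neighbouring peak centres (kb) in each window, filled for ESC and outlined in black for NPC; the legend says how many of all distances lie within the axis. Pcdha has its tallest column under 1 kb in both lists, and Pcdhb has 14 ESC distances between 2.2 and 2.5 kb, against 1 in NPC.

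The peaks of a Pcdhb pair were unequal. In 12 of the 14 pairs the first peak had the higher ESC percentile, with a median of 79.0 for first and 38.4 for second peaks. The pairs are not all separate, since the peak at 37675446 to 37675901 belonged to 2 of them. In 2 pairs both peaks were shared, in 5 only the first, in 2 only the second and in 5 neither. Shared peaks also ranked higher over the whole ESC list, with a median percentile of 62.07, against 20.8 for ESC-only peaks. Where a single peak of a Pcdhb pair was shared, it had the higher ESC percentile in 7 of 7 pairs. Whether this differs from pairs elsewhere in the list was not tested. At 37500881 to 37501735, for example, the first peak (percentile 90.7 in ESC) had an NPC peak at percentile 49.1, and its partner at 37503459 to 37503852 (18.7 in ESC) had none. At 37514366 to 37515051 the first peak stood at 93.6 in ESC and 65.2 in NPC, and its partner at 37516771 to 37517226 (47.9) was ESC-only.

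ESC-only peaks of Pcdhb lay together in its second part. From 500 to 600 kb after the start of the locus, 10 of 18 ESC peaks were ESC-only, compared with 3 of 10 in the preceding 100 kb. The longest run of consecutive ESC-only peaks in the locus held 9 peaks from 37646594 to 37675901 (29.3 kb), at percentiles from 3.21 to 79.97. Runs at least as long occurred 9 times in the whole ESC list, this one included. A further run of 4 peaks extended from 37594879 to 37607566, at percentiles from 43.4 to 68.6. Runs of at least 4 were common, with 352 in the ESC list. The 5 ESC-only peaks of Pcdhb with the highest scores were at 37648522 to 37649433 (score 1161, percentile 79.97), 37594879 to 37595719 (882, 68.6), 37650977 to 37651695 (878, 68.4), 37672893 to 37673595 (854, 67.3) and 37606926 to 37607566 (815, 65.5). The nearest NPC peaks of the 17 were 1364 to 13883 bp away, with a median of 4217 bp, and 0 of the 17 lay within 1 kb. Over the whole list the median was 10481 bp, and 1108 of 14086 ESC-only peaks lay within 1 kb of an NPC peak.

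Shared Pcdhb sites ranked lower in NPC without exception. All 18 matched 1-to-1, and all 18 had a lower percentile in NPC than in ESC, against a background of 52.9% of all 1-to-1 sites. The median percentile was 82.1 in ESC and 37.7 in NPC, and the median difference was -28.14 points (interval -50.3 to -17.0). The 3 sites with the highest ESC percentiles were at 37609223 to 37610056, 37644155 to 37644919 and 37514366 to 37515051. The first of these went from 94.2 to 2.55, the second from 93.8 to 7.27 and the last from 93.6 to 65.2. Another large drop was at 37677590 to 37678318, from 82.8 to 11.7, and the widest gap of the window in both lists, 52.3 kb, followed this site. The smallest was at 37493145 to 37493836, from 63.0 to 58.5. No NPC peak of the window reached the top 25% of the NPC list, and the highest stood at percentile 70.1. Over all shared NPC peaks 31.4% were in that top 25%. Of the 18, 7 (38.9%) were in the lowest 25% of the NPC list, against 16.3% of all shared NPC peaks.

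ESC-only peaks of Pcdhg had a median percentile of 70.1, against 60.4 in Pcdha, 45.5 in Pcdhb and 20.8 for the class in the whole list. Of the 16, 11 were in the upper 50% of the list (68.8%), as were 4 of the 6 in Pcdha (66.7%) and 6 of the 17 in Pcdhb (35.3%). The background was 1342 of all 14089 ESC-only peaks (9.5%). The highest ESC-only peak of Pcdhg was at 37890192 to 37890828 (score 2057, percentile 97.2), 10632 bp from the nearest NPC peak. It was followed by 37839556 to 37840282 (1860, 95.5), 37879653 to 37880321 (1549, 90.8), 37844431 to 37845204 (1370, 86.5) and 37906279 to 37907001 (1314, 84.9). The peak at 37879653 to 37880321 was the ESC-only peak of the locus farthest from an NPC peak, at 21139 bp. A run of 8 ESC-only peaks from 37866295 to 37896816 (30.5 kb) had a median percentile of 69.3, and runs of at least 8 occurred 16 times in the ESC list. A run of 4 lay from 37839556 to 37849778, with a median of 81.2, and runs of at least 4 occurred 352 times in the ESC list. The NPC list had 1 gap of 47.6 kb between neighbouring peaks across the run of 8, where neighbouring ESC peaks of the run were 2.36 to 7.66 kb apart. The widest ESC gap of the window, 34.2 kb, followed the ESC-only peak at 37931531 to 37932143 (percentile 83.6).

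Matched sites of Pcdhg were divided. Of 13 sites that matched 1-to-1, 9 had a lower and 4 a higher NPC percentile, with medians of 88.8 in ESC and 48.1 in NPC. The median difference was -10.29 points (interval -60.2 to 1.59), and it was -0.04 when matching required 50% reciprocal overlap, which left 9 sites. At 6 of the 13 the NPC percentile was over 25 points lower. The site at 37820917 to 37821720 went from 91.6 to 25.5, the one at 37914949 to 37916042 from 82.9 to 17.2, and the one at 37828118 to 37828725 from 88.8 to 28.6. Likewise the site at 37910759 to 37911602 went from 97.4 to 46.1 and the one at 37833528 to 37834292 from 97.2 to 40.8.

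Other Pcdhg sites had a high rank in both lists. The site at 38011611 to 38012461 scored 3100 in both, at percentiles of 99.8 and 99.7, a score value tied with other peaks. The site at 37920749 to 37921632 stood at 97.3 in ESC and 97.4 in NPC, and the one at 37814845 to 37815900 at 91.5 and 93.1. The 2 sites with gains of over 25 points lay at the far end of the window. The ESC peak at 37965824 to 37966160 was the weakest of the locus (score 102.4, percentile 0.642) and had an NPC peak at 45.3, and the site at 38000858 to 38001402 went from 36.8 to 67.1. From 900 to 970 kb after the start of the locus the median difference at 3 sites was 30.3 points, the only segment of 100 kb or less with a positive value.

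**Figure D4:**
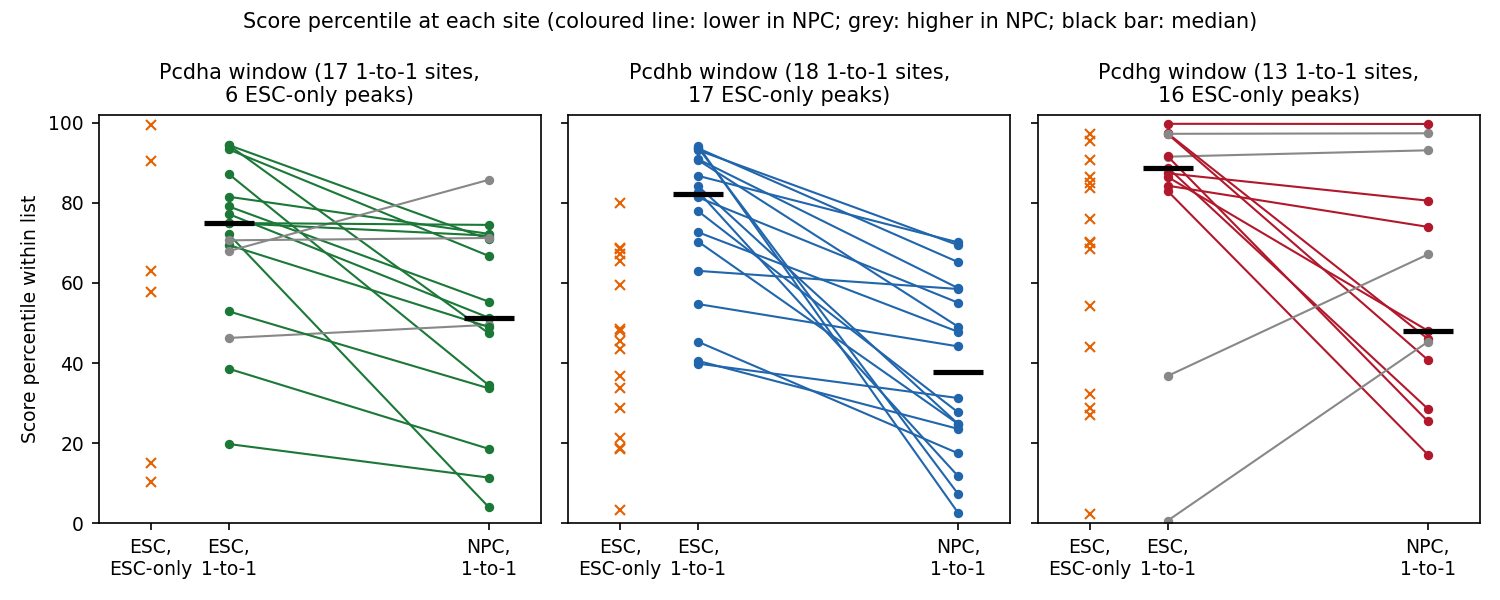
Lines join the ESC and NPC score percentile of each 1-to-1 site in the 3 windows, coloured where NPC is lower and grey where it is higher, with black bars at the medians; crosses are ESC-only peaks. All 18 Pcdhb lines go down, and the Pcdhg window has lines near 100 at both ends beside steep drops.

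Over the locus 41 of 48 matched sites had a lower percentile in NPC (85.4%), and the median difference was -23.74 points (interval -32.2 to -10.6), against -1.18 over all 39595 matched sites. In the flanks the medians were 2.08 and -0.93 points. Drops of over 25 points occurred at 22 of the 48 sites (45.8%), against a background of 16.4%, and gains of over 25 points at 2 (4.17%), against 11.9%. Drops this large numbered 5 of 17 in Pcdha, 11 of 18 in Pcdhb and 6 of 13 in Pcdhg. Sites ranked high in one list can hardly rank higher in the other, and the part of this in the drops was not tested. The sites in the ESC top 25% were also set beside all such sites. In the locus 14 of 29 of them (48.3%) were in the lower 50% of the NPC list, against a background of 11.5%. By window the counts were 2 of 7 in Pcdha, 6 of 11 in Pcdhb and 6 of 11 in Pcdhg. The median NPC percentile of the 29 sites was 51.3, against 81.8 over all sites of the ESC top 25%.

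In Pcdha 14 of 17 matched sites were lower in NPC, with medians of 74.98 in ESC and 51.3 in NPC and a median difference of -20.02 points (interval -25.9 to -3.18). The sites with the highest ESC percentiles were at 37098355 to 37099092 (94.5 in ESC, 47.4 in NPC), 37120280 to 37120988 (94.4, 70.9) and 37164460 to 37165085 (93.4, 66.8). Another large drop was at 37127683 to 37128175, from 87.2 to 34.5. The largest rise was at 37249301 to 37249928, from 68.0 to 85.8, and a small one at 37152252 to 37152772, from 46.3 to 49.5. The site at 37249301 to 37249928 stood alone, 64.8 kb from its neighbour on one side and 127.6 kb on the other. Of the sites above percentile 60 in ESC, 7 of 38 in the locus differed by less than 5 points between the lists (18.4%), against 26.1% over all such sites. They were 3 sites in Pcdha, 1 in Pcdhb and the 3 Pcdhg sites given above with a high rank in both lists.

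The nearest ESC peak outside the locus on the low side, at 36962349 to 36963023 (percentile 78.6, shared), was 97.3 kb from the border, and the first inside was the ESC-only peak at percentile 99.4, 30.1 kb from it. At the Pcdha and Pcdhb border the neighbours were 21.9 kb before (37377729 to 37378517, percentile 74.98) and 54.45 kb after (37453998 to 37454902, percentile 90.9), both shared. At the Pcdhb and Pcdhg border they were 19.7 kb before (37729997 to 37730609, percentile 54.7, shared) and 63.5 kb after (37813294 to 37813783, percentile 28.8, ESC-only). The far border lay closer to peaks: the last peak inside was 17.96 kb from the border (99.8, shared) and the first outside 7.19 kb beyond it (38036826 to 38037561, percentile 75.3, shared). No peak of either list had its centre from 200 to 300 kb after the start of the locus.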

How the data were processed

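The authors deposited 1 list of CTCF ChIP-seq peaks per sample, made with MACS, per the file headers, whose track names end in an unexplained CONTROL. Per the submitters' processing notes the build is mm9. The aligner, control input, MACS version and threshold were not given in the sources used here. Each peak has a deposited score whose definition the files do not state, so scores were used only as percentiles within a list (mid-rank for ties). Coordinates are printed 1-based. Overlap was computed with bedtools 2.31.1 at a minimum of 1 bp, in Python 3.11.15 with numpy 2.4.6, pandas 2.3.3 and scipy 1.17.1; plots used matplotlib 3.10.9. A 1-to-1 site is an ESC and an NPC peak that overlap only each other. Shares carry exact Clopper-Pearson 95% intervals and medians order-statistic 95% intervals. Tested on simulated data, the overlap code found 40000 of 40000 planted sites and called 74 of 14151 other peaks shared.

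The members, windows and lists were chosen with earlier results of these data known. Named peaks follow a rule: per window the 5 highest ESC-only peaks, all NPC-only peaks, the 3 highest matched sites, the 3 largest drops and rises, the longest run, the widest gap and the peaks at each border; peaks of the close pairs, of shorter runs and of sites with little change were named after their values were seen. Segments of 100 kb, the distance bands and the sites within 5 points were chosen likewise. With 1 library per cell type no test was made. Alternatives were other overlap rules, score-limited lists, lists of equal length, borders moved by 20 kb and percentiles within chromosome 18.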

Additional observations from a re-analysis of the deposited data

How the results depend on the processing

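In all, 160 alternative values were computed, of which 133 stayed within the interval of the value in the report (counts of peaks: within 1.5 times). Of the 16 that are signed differences, 0 changed sign. With 50% reciprocal overlap the ESC-only share was 60.7% in the locus and 68.6% in Pcdhb, against 31.7% of the whole ESC list. The NPC-only share was then 31.4% in the locus, 38.9% in Pcdhb and 35.7% in Pcdhg, against 28.1% of the whole NPC list. With centres within 100 bp the NPC-only share of the locus was 17.6%, against 26.6% of the whole NPC list. With peaks within 1 kb the NPC-only share was 0% in the locus, Pcdha and Pcdhg, against 19.7% of the whole NPC list. With the upper 50% of a list against the whole other list the ESC-only share of Pcdhb was 28.6%, against 4.96% over all such ESC peaks. The NPC-only share in that setting was 0% in the locus, Pcdha and Pcdhg, against 5.01% over all such NPC peaks. With the upper 50% of both lists the ESC-only share was 65.1% in the locus, 71.4% in Pcdhb and 77.3% in Pcdhg. Over all ESC peaks of that setting it was 27.2%. The NPC-only share of Pcdha was then 0%, against 22.8% over all NPC peaks of that setting. That setting left 21 ESC peaks in Pcdhb and 22 NPC peaks in the locus (10 in Pcdha, 6 in Pcdhb, 6 in Pcdhg). Its median ESC spacing was 6117 bp in Pcdha, 7205.5 bp in Pcdhb and 5654 bp in Pcdhg, so Pcdhb no longer had the shortest. The locus medians were 6063 bp in ESC and 21217.5 bp in NPC, and the NPC medians 13384 bp in Pcdha and 38780 bp in Pcdhg. Over 8 settings the ESC-only share of the locus ranged from 33.3% to 65.1%. The share over the whole ESC list was 4.96% in the setting with the lowest value and 27.2% in the one with the highest. The median difference at matched sites ranged from -23.61 to -16.62 points in the locus, and in Pcdhg from -23.56 to -0.04. No depth is given with the lists, and how many ESC-only peaks have a site just under the calling limit in NPC was not tested. No paired analysis was possible because each cell type has 1 library, and none could be left out.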
